A study of Mus musculus with 73 samples.

Results

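Hox genes encode homeodomain transcription factors, and all 39 members of the 4 mouse clusters were followed here through 73 mammary tumours of 4 genotypes and 3 histologies. The members were taken by symbol, as every entry of the count table written Hox, a cluster letter from a to d and a number: 11 genes of Hoxa, 10 of Hoxb, 9 of Hoxc and 9 of Hoxd, out of 39438 symbols. The 6 other symbols that begin with Hox are noncoding or antisense transcripts and were kept apart. The study set tumours with the Brca1 allele L1363P, of several histologies, beside tumours of the KP, KB1P and KB2P models, so the questions here are which Hox genes differ with histology within a model and which differ between models.

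The genotype labelled KB1(L1363P)P, called L1363P below, gave 3 adenocarcinomas, all labelled 100% epithelial, 9 carcinosarcomas labelled 2 to 98% epithelial with a median of 85%, and 9 sarcomatoid tumours labelled 0% epithelial. The genotype KP gave 5 adenocarcinomas and 3 carcinosarcomas, the latter labelled 80 to 90% epithelial. Adenocarcinomas of the genotype labelled KB1P numbered 21, of which 11 carry KB1P in their titles and 10 carry KB1PM, a name that the labels do not spell out. Adenocarcinomas of genotype KB2P numbered 23. The labels give no age, gland or litter. As background, the K, B1, B2 and P of these names stand for a Krt14-driven Cre recombinase and floxed Brca1, Brca2 and Trp53, so the KP, KB1P and KB2P tumours share the loss of Trp53 in cells that express keratin 14. The labels do not state that each tumour came from its own animal (carcinosarcomas 54.1 and 54.2 share a number), so the p-values speak to the spread among these libraries alone.

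Hox proteins tell cells of the embryo where they lie along the body axis. Genes of the same number in different clusters, such as Hoxa13 and Hoxb13, are paralogs that arose when an ancestral cluster was duplicated, and the order of the genes along the chromosome follows the order in which they act from head to tail. Polycomb proteins keep the clusters silent where they are not needed, Trithorax proteins keep them active, and Pbx and Meis proteins bind DNA together with Hox proteins. In the mammary gland the genes of group 9 are known for ductal growth in pregnancy, and HOXB13 is best known from the prostate and hindgut.

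In GRCm38 the Hoxa cluster lies on chromosome 6 on the minus strand. Hoxb lies on chromosome 11 from 96194316 to 96368256, Hoxc on chromosome 15 from 102921103 to 103036852 and Hoxd on chromosome 2 from 74668310 to 74765142, all 3 on the plus strand. Some members overlap other transcripts, and the sources used here do not say if the authors' counting took the strand into account. Hoxd3 shares 62.3% of its exon bases on the same strand with Hoxd4 and Gm28230. Hoxb3 shares 52.9% with Hoxb3os, Hoxa11 35.0% with Hoxa11os and Hoxa3 25.4% with Hoxaas2, Hoxaas3 and 2 further transcripts, all on the opposite strand, so the counts of these genes are uncertain in that measure. Hoxb13, Hoxb8, Hoxb7 and Hoxc13 share none.

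The libraries held 7325180 to 31615200 counts. The number in the first field of each library's description is called its run here. That it marks a sequencing run is an inference. All L1363P and KP libraries carry the number 5625. The KB1P, KB1PM and KB2P libraries carry others, so model and run cannot be told apart between them. Levels are CPM, counts scaled to the size of the library, after TMM scaling, and 3 counts are worth 0.0836 to 0.347 CPM, depending on the library. The summed level of 12 epithelial markers was 3566 to 9925 CPM in L1363P adenocarcinomas, 119 to 5296 in carcinosarcomas and 74.8 to 539 in sarcomatoid tumours, and that of 8 fibroblast markers was 1717 to 3139, 1131 to 16513 and 9758 to 20842 CPM. Carcinosarcomas 17 and 4 and KP adenocarcinoma 90.01A had epithelial sums far below the rest of their groups. In whole tumour tissue, fewer cells of a type and less RNA per cell cannot be told apart.

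The 250 bases before the start are printed for 4 genes on which the results turn, to let their promoters be read beside the levels: Hoxa2, which was higher in carcinosarcomas than in sarcomatoid tumours, Hoxb8, which was higher in sarcomatoid tumours, and Hoxa11 and Hoxd10, each high in a single tumour. The sequences are RefSeq's for GRCm38.p6, written 5′ to 3′ in the direction of transcription, at chr6:52164832-52165081 on the minus strand for Hoxa2, chr11:96281655-96281904 on the plus strand for Hoxb8, chr6:52245811-52246060 on the minus strand for Hoxa11 and chr2:74691641-74691890 on the plus strand for Hoxd10. Capitals mark the motif TGATNNAT, bound by Hox with Pbx proteins, on either strand.
Hoxa2: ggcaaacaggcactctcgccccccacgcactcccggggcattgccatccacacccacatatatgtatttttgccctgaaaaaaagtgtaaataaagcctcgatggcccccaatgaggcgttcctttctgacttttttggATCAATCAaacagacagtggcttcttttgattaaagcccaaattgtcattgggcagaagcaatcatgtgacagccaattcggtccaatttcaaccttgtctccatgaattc
Hoxb8: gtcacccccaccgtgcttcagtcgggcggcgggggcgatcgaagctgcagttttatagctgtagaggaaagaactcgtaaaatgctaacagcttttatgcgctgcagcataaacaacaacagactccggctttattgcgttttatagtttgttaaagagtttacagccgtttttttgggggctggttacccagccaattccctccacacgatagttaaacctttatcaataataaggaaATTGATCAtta
Hoxa11: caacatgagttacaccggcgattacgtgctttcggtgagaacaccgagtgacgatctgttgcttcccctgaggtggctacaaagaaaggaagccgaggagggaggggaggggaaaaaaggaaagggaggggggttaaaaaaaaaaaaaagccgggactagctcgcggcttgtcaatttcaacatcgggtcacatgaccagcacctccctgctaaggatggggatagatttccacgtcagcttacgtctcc
Hoxd10: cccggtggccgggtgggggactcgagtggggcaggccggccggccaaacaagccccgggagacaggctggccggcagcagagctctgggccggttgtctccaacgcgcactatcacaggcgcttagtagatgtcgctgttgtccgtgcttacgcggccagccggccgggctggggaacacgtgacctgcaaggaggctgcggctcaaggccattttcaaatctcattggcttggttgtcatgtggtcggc
Of the 39 genes, 22 had an entry, with 24 windows in all. TGATNNAT was found in 4 of the 24 windows, 16.7% (Hoxa2, Hoxb1, Hoxb8 and Hoxd11), and in 7.91% of 27025 promoters of the same length. The motif TTTATNG, bound by Hox proteins of groups 9 to 13 and by Cdx proteins, was in 2 windows, 8.33%, against 10.2% of all, with 3 matches in the Hoxb8 window. A pair of AGGTCA letters 5 bases apart, read by retinoic acid receptors, was in none of the 24, and 0.0074% of all promoters hold it. The Hox windows held a median of 12.5 CG pairs against 6 in all promoters, and 58.6% G and C against 52%. Both strands were searched, overlaps between motifs were not counted, and a match is a description of letters only.

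Hox genes were weakly expressed in most tumours, and each cluster was led by a few genes. Compared per kilobase of exon, the highest median levels over the 73 tumours were those of Hoxd8 (1.28 CPM per kb), Hoxb4 (1.16), Hoxc6 (0.896) and Hoxb7 (0.758). Hoxb1, Hoxa11, Hoxa13, Hoxd1, Hoxc11, Hoxc12, Hoxd3, Hoxd11, Hoxd12 and Hoxd13 had a median of 0, and Hoxd12 was at 0 in 72 tumours. The group 13 genes Hoxb13 and Hoxc13 were at 0 in 34 and 33 tumours.

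The summed level of the Hoxa cluster had a median of 10.8 CPM over all tumours and was 2.49 in L1363P adenocarcinomas, 23.1 in carcinosarcomas and 13.5 in sarcomatoid tumours, and 9.81 and 19.2 in KP adenocarcinomas and carcinosarcomas. Its highest sum was 402 CPM in KB2P tumour 3. The Hoxb cluster had a median of 13.4 CPM and its highest sum, 179, in sarcomatoid tumour 10, where the Hoxc cluster also reached its highest sum, 161. The Hoxd cluster had a median of 4.71 CPM and reached 257 in KB2P tumour 38. Single tumours thus stood far above the median of each cluster.

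**Figure D1:**
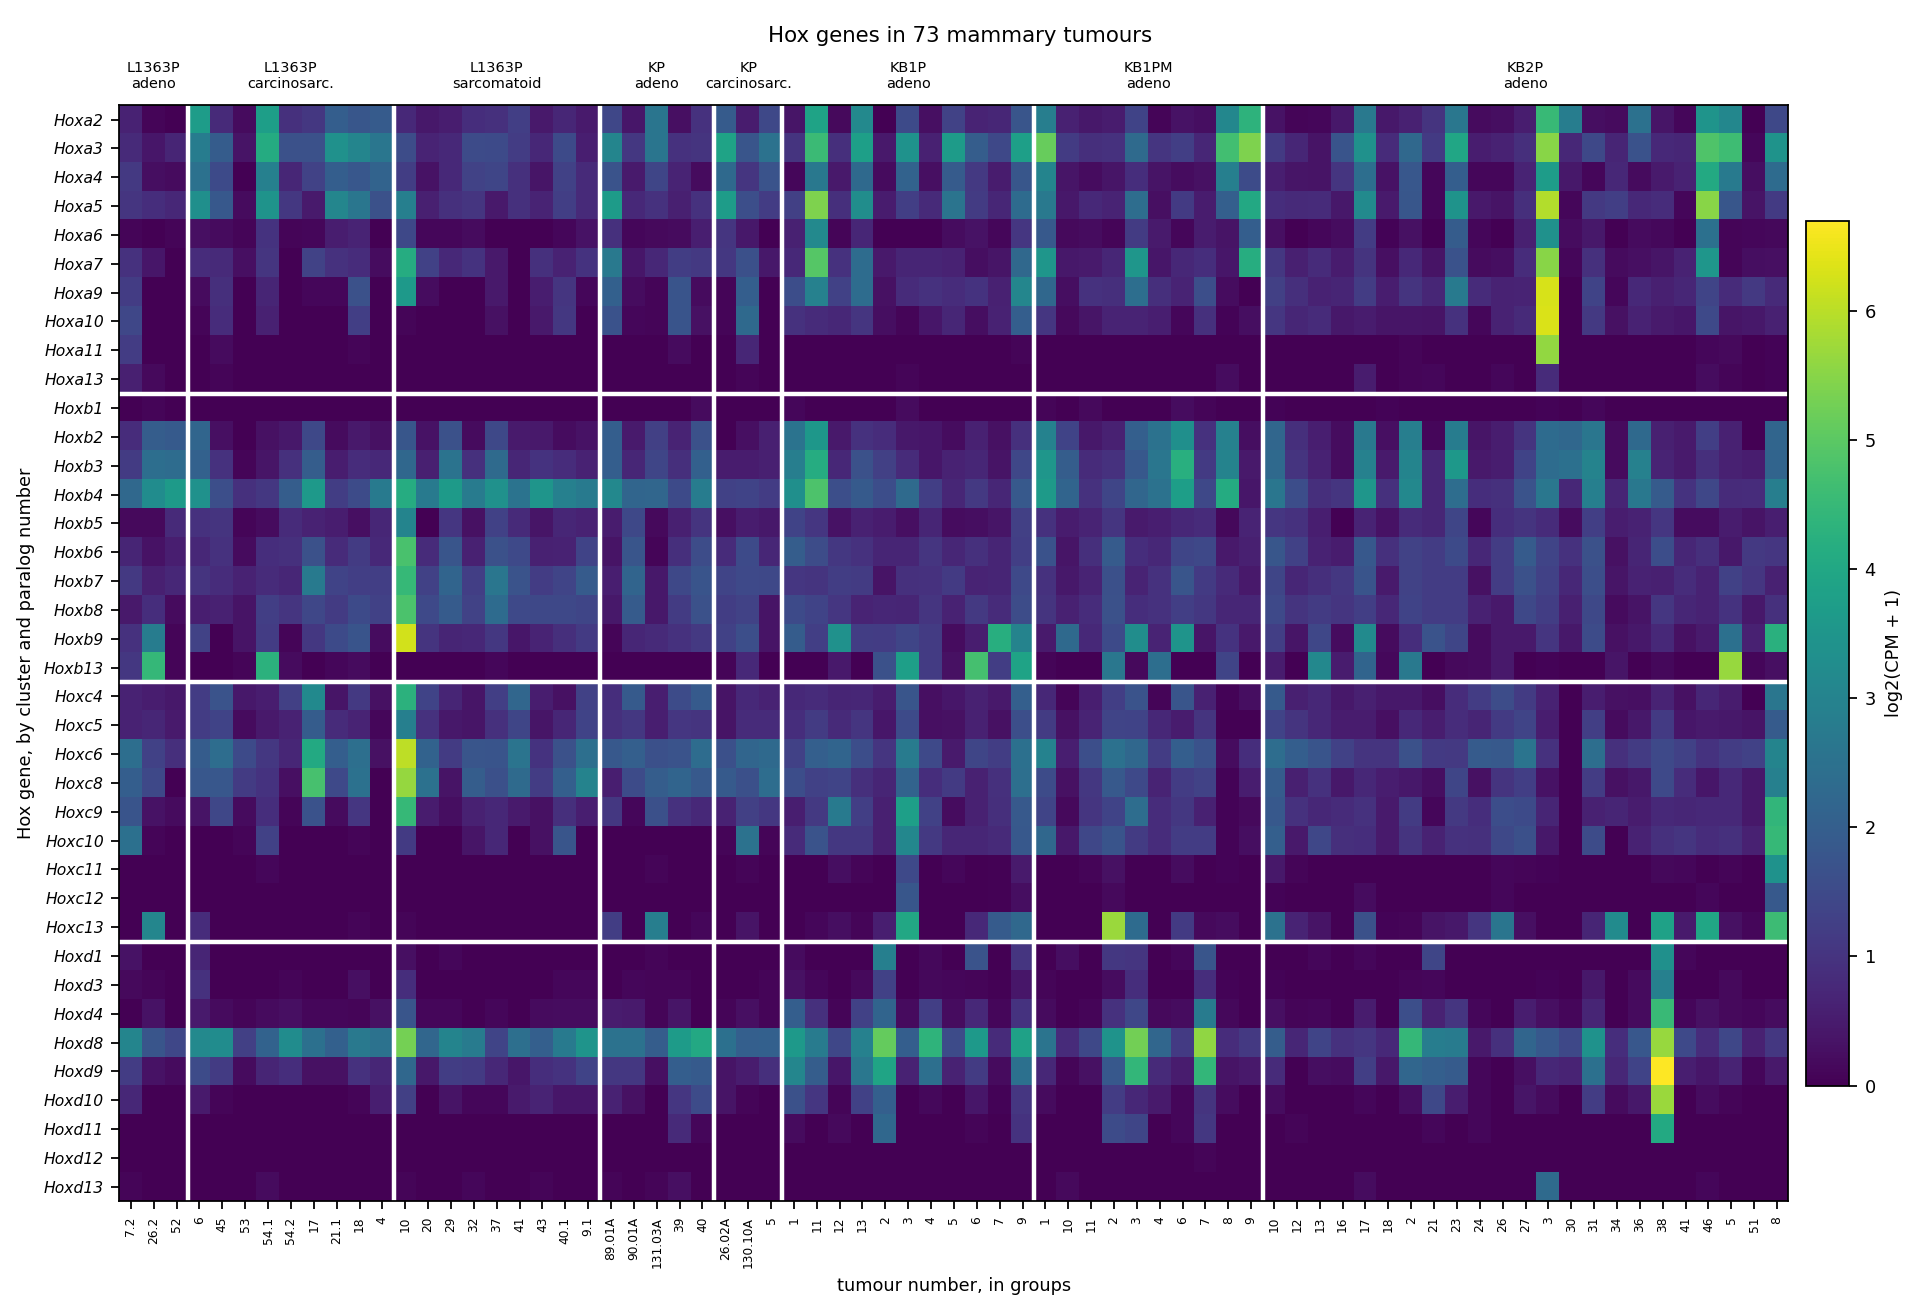
Levels of Hox genes (vertical axis, by cluster and paralog number) in each of the 73 tumours (horizontal axis, tumour number in groups), coloured by log2(CPM + 1). Rows such as Hoxd8 and Hoxb4 are filled in most tumours, while Hoxa11, Hoxc12 and Hoxd12 are at 0 in most, and bright columns show KB2P tumour 3 in Hoxa, KB2P tumour 38 in Hoxd and sarcomatoid tumour 10 in several clusters.

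Between L1363P sarcomatoid tumours and adenocarcinomas, 3 Hox genes rose, Hoxb7 and Hoxb8 among them, and 2 fell, Hoxb13 and Hoxc13, of 28 tested, by edgeR's quasi-likelihood test with Benjamini-Hochberg adjustment over all genes at 0.05. Over all 16147 genes tested 30.6% were called in this comparison, so 5 of 28 (17.9%) is no more than the background. By cluster, 2 rose and 1 fell of 9 Hoxb genes, 1 of 7 Hoxc genes fell and none of 3 Hoxd genes passed. The median log2 fold change of the 28 was 1.47, beside -0.09 over all genes. It was taken against 3 adenocarcinomas and with sarcomatoid tumour 10, and was not taken without that tumour. In the other 8 sarcomatoid tumours the mean of Hoxb9 was 0.809 CPM, below the 2.35 of adenocarcinomas. That of Hoxb8 was 2.13, above their 0.445. The other 11 members had too few counts to be tested.

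Between carcinosarcomas and adenocarcinomas of the L1363P model 1 of 28 Hox genes was called, beside 2.7% of all genes. In the same comparison 1 of 12 epithelial markers fell and 0 of 8 fibroblast markers changed, whereas between sarcomatoid tumours and adenocarcinomas 12 of 12 epithelial markers fell and 3 of 8 fibroblast, 5 of 5 endothelial and 5 of 5 macrophage markers rose. The part of these cells in the Hox levels was not tested. Over the 9 carcinosarcomas, 8.34% of 14645 genes followed the labelled epithelial percentage, and 0 of 20 Hox genes did by edgeR, DESeq2 or limma; 1 had an unadjusted p under 0.05, Hoxb7, at a log2 slope of -0.20 per 10 points (SE 0.0665, adjusted p = 0.0997).

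**Figure D2:**
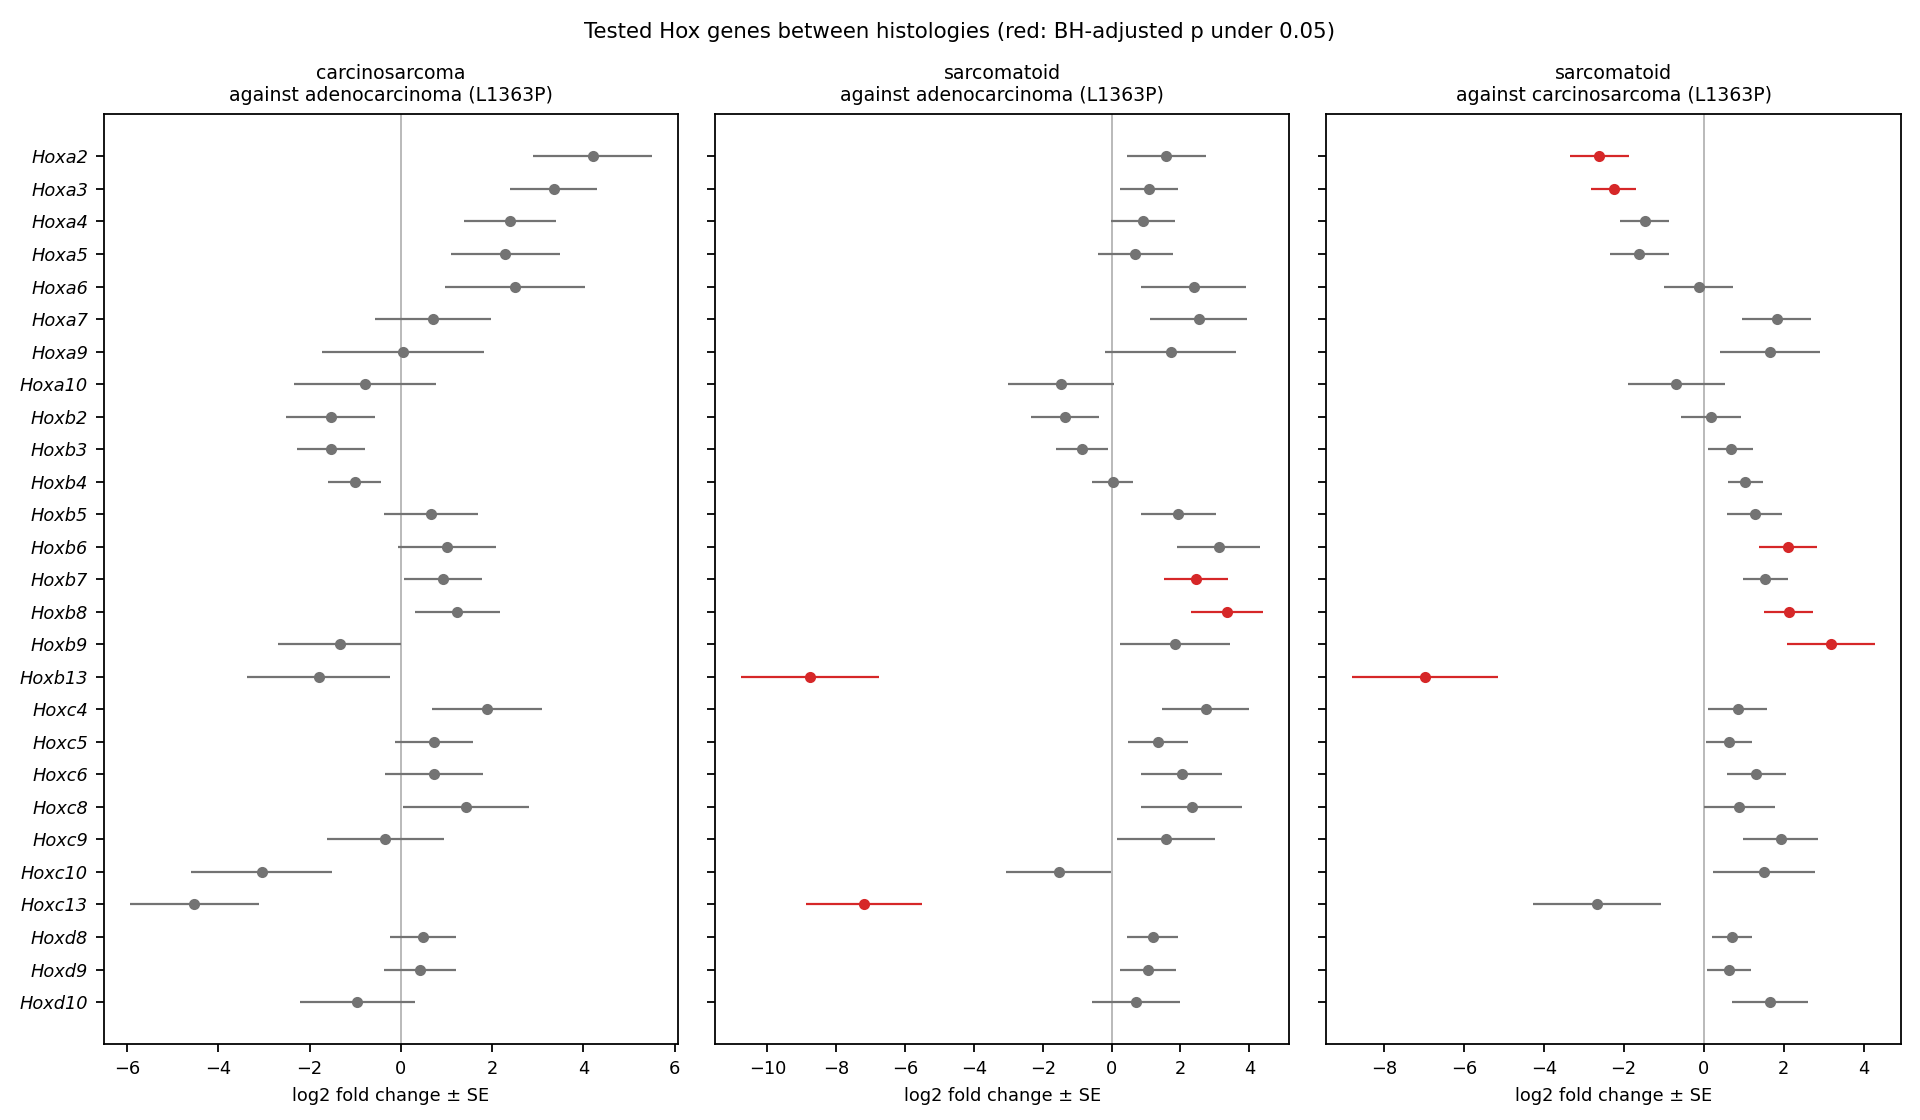
Log2 fold change with its SE (horizontal axis) of tested Hox genes (vertical axis) in 3 comparisons of L1363P histologies, with genes of adjusted p under 0.05 in red. Hoxb8 stands to the right in both comparisons of sarcomatoid tumours, Hoxa2 and Hoxa3 to the left between sarcomatoid tumours and carcinosarcomas, and Hoxb13 far to the left in both comparisons of sarcomatoid tumours.

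Hoxa2 and Hoxa3, neighbours in the Hoxa cluster, were higher in carcinosarcomas than in sarcomatoid tumours. Hoxa3 (chromosome 6, 52169062 to 52213336), known for patterning the pharyngeal arches, was at 0.740, 0.320 and 0.609 CPM in adenocarcinomas 7.2, 26.2 and 52. In carcinosarcomas it ranged from 0.279 through a median of 5.18 to 16.4, and in sarcomatoid tumours from 0.487 through 1.29 to 1.95. In 8 of 9 carcinosarcomas it was above every sarcomatoid tumour, and carcinosarcoma 53 was below all of them.

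Hoxa3 fell between carcinosarcomas and sarcomatoid tumours, from 5.76 ± 4.93 to 1.25 ± 0.631 CPM (SD, n = 9 each), a log2 fold change of -2.25 with an SE of 0.566 and an adjusted p of 0.0075 by edgeR that held in 24 of 24 alternatives. Hoxa2, known for specifying the second pharyngeal arch, fell as well, with a log2 fold change of -2.61, an SE of 0.734 and an adjusted p of 0.0142, and limma on the deposited log2 values gave 0.0833. Its 2 highest levels were 12.6 CPM in carcinosarcoma 54.1 and 11.9 in carcinosarcoma 6, and 5 carcinosarcomas were above every sarcomatoid tumour. The next genes of the cluster did not pass: Hoxa4 had a log2 fold change of -1.48 (adjusted p = 0.0876) and Hoxa5 of -1.61 (adjusted p = 0.122) by edgeR.

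Against adenocarcinomas, Hoxa2 and Hoxa3 did not pass in carcinosarcomas, with log2 fold changes of 4.20 (SE 1.30, adjusted p = 0.0750) and 3.34 (SE 0.956, adjusted p = 0.0550) by edgeR. Both were above all 3 adenocarcinomas in 8 of 9 carcinosarcomas. DESeq2 called 3 Hox genes, Hoxa2 and Hoxa3 among them, and limma called 1. Among those that did not pass, Hoxa6 was at 0.287 ± 0.326 CPM (SD, n = 9) against 0.0431 ± 0.0374 (SD, n = 3), and Hoxc13 and Hoxc10 had the lowest fold changes, -4.52 (adjusted p = 0.0789) and -3.05 (adjusted p = 0.266).

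Noncoding transcripts of the Hoxa cluster were also called between histologies. Hotairm1 rose in carcinosarcomas from 0.128 ± 0.0622 to 1.40 ± 0.897 CPM (log2 fold change 3.34, adjusted p = 0.0088 by edgeR) and in sarcomatoid tumours to 0.794 ± 0.164 (2.48, adjusted p = 0.0069). Hoxaas2 rose in carcinosarcomas, at a log2 fold change of 3.24 and an adjusted p of 0.0324. Hoxaas3 fell between carcinosarcomas and sarcomatoid tumours, at -1.88 and 0.0447. Of 15 noncoding genes of the clusters, 4 had enough counts to be tested in these libraries.

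Between sarcomatoid tumours and carcinosarcomas 6 of 28 Hox genes were called (21.4%), beside 21.5% of all genes: Hoxb6, Hoxb8 and Hoxb9 rose, and Hoxa2, Hoxa3 and Hoxb13 fell. Thus 2 of 9 Hoxa genes fell, 3 rose and 1 fell of 9 Hoxb genes, and none of 7 Hoxc or 3 Hoxd genes passed. The median log2 fold change was 0.78, beside -0.04 over all genes. Sarcomatoid tumour 10, with the highest sarcomatoid level of many of these genes, entered this median, which was not taken without it. In the other 8 sarcomatoid tumours the mean of Hoxc6 was 2.73 and that of Hoxc8 3.15 CPM, below the 3.79 and 4.42 of carcinosarcomas. That of Hoxb8 was 2.13, above the 1.10 of carcinosarcomas. DESeq2 called 7 and limma 2, Hoxa3 lower and Hoxb4 higher.

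The middle of the Hoxb cluster was higher in sarcomatoid tumours, and 1 tumour held most of it. Hoxb8 (chromosome 11, 96281905 to 96285315), a gene of trunk patterning and of myeloid progenitors, was at 0.370, 0.831 and 0.135 CPM in adenocarcinomas 7.2, 26.2 and 52. In carcinosarcomas it ranged from 0.279 through a median of 1.23 to 1.81. In sarcomatoid tumours it was 27.1 CPM in tumour 10 and 1.50 to 4.08 in the 8 others, so all 9 lay above the 3 adenocarcinomas.

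The log2 fold change of Hoxb8 over adenocarcinomas was 3.36 with an SE of 1.05 and an adjusted p of 0.0173 by edgeR, and without tumour 10 it was 2.15 with an adjusted p of 0.0238. The call was lost without adenocarcinoma 7.2 (0.0659) or 52 (0.0733). Hoxb7 rose with a log2 fold change of 2.46, an SE of 0.928 and an adjusted p of 0.0448, all 9 sarcomatoid tumours lying above the 3 adenocarcinomas, but without tumour 10 the values were 1.56 and 0.0938, and the call was lost in 9 of 18 alternatives. Hoxb6 (3.12, adjusted p = 0.0511), Hoxc4 (2.73, adjusted p = 0.0973) and Hoxa7 (2.53, adjusted p = 0.170) had the next largest values that did not pass.

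Against carcinosarcomas, Hoxb8 rose by 2.12 on the log2 scale (SE 0.615, adjusted p = 0.0164 by edgeR), Hoxb6 by 2.103 (SE 0.722, adjusted p = 0.0390) and Hoxb9 by 3.18 (SE 1.09, adjusted p = 0.0392). All 3 calls ended without sarcomatoid tumour 10, with 0.92 (adjusted p = 0.136) for Hoxb8, 0.43 (adjusted p = 0.557) for Hoxb6 and -0.28 for Hoxb9. Hoxb9, a gene of mammary and thoracic patterning, was at 73.9 CPM in tumour 10 and 0.323 to 1.22 in the other 8, whose mean of 0.809 ± 0.305 (SD, n = 8) lay below the 0.952 ± 0.857 (SD, n = 9) of carcinosarcomas. The mean of Hoxb8 in those 8 was 2.13 ± 0.877 and that of Hoxb7 2.42 ± 1.37 (SD, n = 8 each).

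Group 13 was the only paralog group with more than 1 called member between L1363P histologies, and both were lower in sarcomatoid tumours. Only these 2 members were tested. Neither had more than 1 read in any sarcomatoid tumour, so both had enough counts for the test only through other groups. Both calls against adenocarcinomas were lost without the same tumour, adenocarcinoma 26.2. Hoxb13 (chromosome 11, 96194316 to 96197447) was at 1.11, 20.8 and 0.0677 CPM in adenocarcinomas 7.2, 26.2 and 52. In carcinosarcomas it was 18.8 CPM in tumour 54.1, 0 in 4 tumours and no more than 0.145 in the other 4. It was 0 in 8 sarcomatoid tumours and 0.0755, a single read, in tumour 37.

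The fitted log2 fold change of Hoxb13 between sarcomatoid tumours and adenocarcinomas was -8.76 (SE 2.01, adjusted p = 0.0031 by edgeR) and between sarcomatoid tumours and carcinosarcomas -6.96 (SE 1.82, adjusted p = 0.0109). Pooled over tumours, 345 reads in adenocarcinomas stood against 1 in sarcomatoid tumours, a ratio of levels of 846 with an exact 95% interval of 151 to 33524, and 254 reads in carcinosarcomas gave a ratio of 236 (42.0 to 9361). These intervals cover counting error only. Adenocarcinoma 26.2 and carcinosarcoma 54.1 held nearly all of those reads. Without 26.2 the first comparison gave -5.08 and an adjusted p of 0.101, with a ratio of 70.1 (11.1 to 2914), and without 54.1 the second gave -1.86 and 0.291, with a ratio of 6.25 (0.758 to 287).

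Hoxc13 (chromosome 15, 102921103 to 102928814), known from hair and nail, was at 7.35 CPM in adenocarcinoma 26.2 and 0 in the other 2. Carcinosarcoma 6 had 0.813 and carcinosarcoma 18 0.0726, and the other 7 had 0. Sarcomatoid tumour 10 had 0.0697, a single read, and the other 8 had 0. The fitted log2 fold change against adenocarcinomas was -7.19 (SE 1.69, adjusted p = 0.0029 by edgeR), and the ratio of pooled levels was 282 (95% interval 49.6 to 11238, counting error only). Without 26.2 the log2 fold change was 0.93 with an adjusted p of 0.785, so this call rested on 1 tumour.

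In KP tumours no Hox gene passed between carcinosarcomas and adenocarcinomas: 0 of 28 were called by edgeR, beside 0% of all genes, with 3 at an unadjusted p under 0.05, 1 called by DESeq2 (Hoxb13, higher) and 0 by limma. The largest values that did not pass were those of Hoxc10 (log2 fold change 7.51, adjusted p = 0.344), which was at 0 in all 5 adenocarcinomas and at 0.0693, 4.73 and 0.0713 CPM in the 3 carcinosarcomas, and Hoxb13 (4.90, adjusted p = 0.488), at 0.0693, 0.706 and 0 in the carcinosarcomas. Hoxc13 (-3.97, adjusted p = 0.440) and Hoxb2 (-2.66, adjusted p = 0.429) were the lowest.

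Whether the 2 genotypes differed in the change from adenocarcinoma to carcinosarcoma was tested as an interaction, and 0 of 28 Hox genes passed by edgeR, beside 0.0124% of all genes. An unadjusted p under 0.05 was found for 5, DESeq2 called 1 (Hoxb13, lower) and limma 0. Hoxa2 had an interaction of 4.27 on the log2 scale (adjusted p = 0.247 by edgeR), Hoxc10 of -10.56 (adjusted p = 0.180) and Hoxb13 of -6.70 (adjusted p = 0.332).

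Among adenocarcinomas of the same run, no Hox gene passed between L1363P and KP: 0 of 28 were called by edgeR, beside 0.211% of all genes, with 5 at an unadjusted p under 0.05, 1 called by DESeq2 (Hoxb13, higher in L1363P) and 0 by limma. Hoxb13 was at 0 counts in all 5 KP adenocarcinomas, where 3 counts over the group would be 0.0438 CPM, and the pooled level of the 3 L1363P tumours was at least 169-fold higher (adjusted p = 0.127). Adenocarcinoma 26.2 held 326 of those 345 reads, and without it the bound was 13.98-fold. Hoxc10 was at 4.56, 0.0639 and 0 CPM in L1363P adenocarcinomas 7.2, 26.2 and 52, at least 36.7-fold above the same floor (adjusted p = 0.191), and 74 of its 75 reads came from 7.2. Hoxa3 was lower in L1363P, at 0.556 ± 0.215 (SD, n = 3) against 3.08 ± 2.91 CPM (SD, n = 5), and did not pass (log2 fold change -2.49, adjusted p = 0.227), and Hoxa2 gave -3.00 (adjusted p = 0.258).

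Hoxc10 and Hoxb13 were the Hox genes called lower in KP adenocarcinomas than in those of the KB1P and KB2P models. Many KB1P and KB2P tumours had no Hoxb13 read either. Hoxc10 (chromosome 15, 102966796 to 102971893), a gene of the lumbar region and hindlimb, was at 0 counts in all 5 KP adenocarcinomas. In the 21 KB1P and KB1PM tumours it ranged from 0.0532 through a median of 1.13 to 7.50 CPM, never at 0. In the 23 KB2P tumours it ranged from 0 in 2 tumours through 0.901 to 21.3 in tumour 8.

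Against KB1P, both titles together, 2 of 32 Hox genes fell in KP (6.25%), beside 27.3% of 18492 genes tested, and against KB2P the same number, beside 35.3%. The 2 were Hoxc10 and Hoxb13 each time. Hoxc10 had fitted log2 fold changes of -7.46 (SE 1.91, adjusted p = 0.0023 by edgeR) and -7.82 (SE 1.92, adjusted p = 0.0010), its pooled level being at least 32.8-fold higher in KB1P and at least 50.5-fold higher in KB2P. KB2P tumour 8 held 396 of the 698 KB2P reads, and without it the bound was 23.2-fold. These 2 comparisons share the KP tumours. Both Hoxc10 calls were kept under every alternative run, 11 for KB1P and 16 for KB2P. These are fewer than the 21 KB1P and 23 KB2P tumours, so those were not each left out. Leaving out a KP adenocarcinoma kept that group at 0 counts and so could change the call little.

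Hoxb13 was at 0 in all 5 KP adenocarcinomas, and also in 8 of 21 KB1P and KB1PM tumours and in 8 of 23 KB2P tumours. Its level in KB1P tumours ran from 0 (3 of 11) through a median of 1.25 to 25.5 CPM, in KB1PM tumours from 0 (5 of 10) through 0.0341 to 5.29 and in KB2P tumours from 0 through 0.102 to 49.8. Against KP the fitted log2 fold changes were -8.15 (adjusted p = 0.0309 by edgeR) and -8.50 (adjusted p = 0.0201), the pooled level being at least 71.7-fold higher in KB1P and at least 78.1-fold higher in KB2P. KB2P tumour 5 held 828 of the 1079 KB2P reads, and without it the bound was 19.2-fold. Without KB1P tumour 6 the KB1P bound was 48.0-fold. The call against KB1P was lost in 7 of 11 alternatives, with an adjusted p of up to 0.0743, and that against KB2P under limma.

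Within run 5625, 16 of 29 tumours had no Hoxc10 read, against 2 of 44 in the other runs. Hoxb13 had no read in 18 of 29 tumours of run 5625 and in 34 of all 73. Many tumours of the other runs thus lacked Hoxb13 too. The low Hoxc10 of KP was shared by L1363P carcinosarcomas, 6 of 9 of which were at 0, and by 4 of 9 sarcomatoid tumours. Genotype and run cannot be told apart in these levels. Among the values that did not pass, Hoxd1 was lower in KP at -4.90 (adjusted p = 0.0774) against KB1P and -4.40 (adjusted p = 0.0955) against KB2P, and the largest positive values were those of Hoxc4 (0.95) against KB1P and Hoxc8 (1.12) against KB2P.

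**Figure D3:**
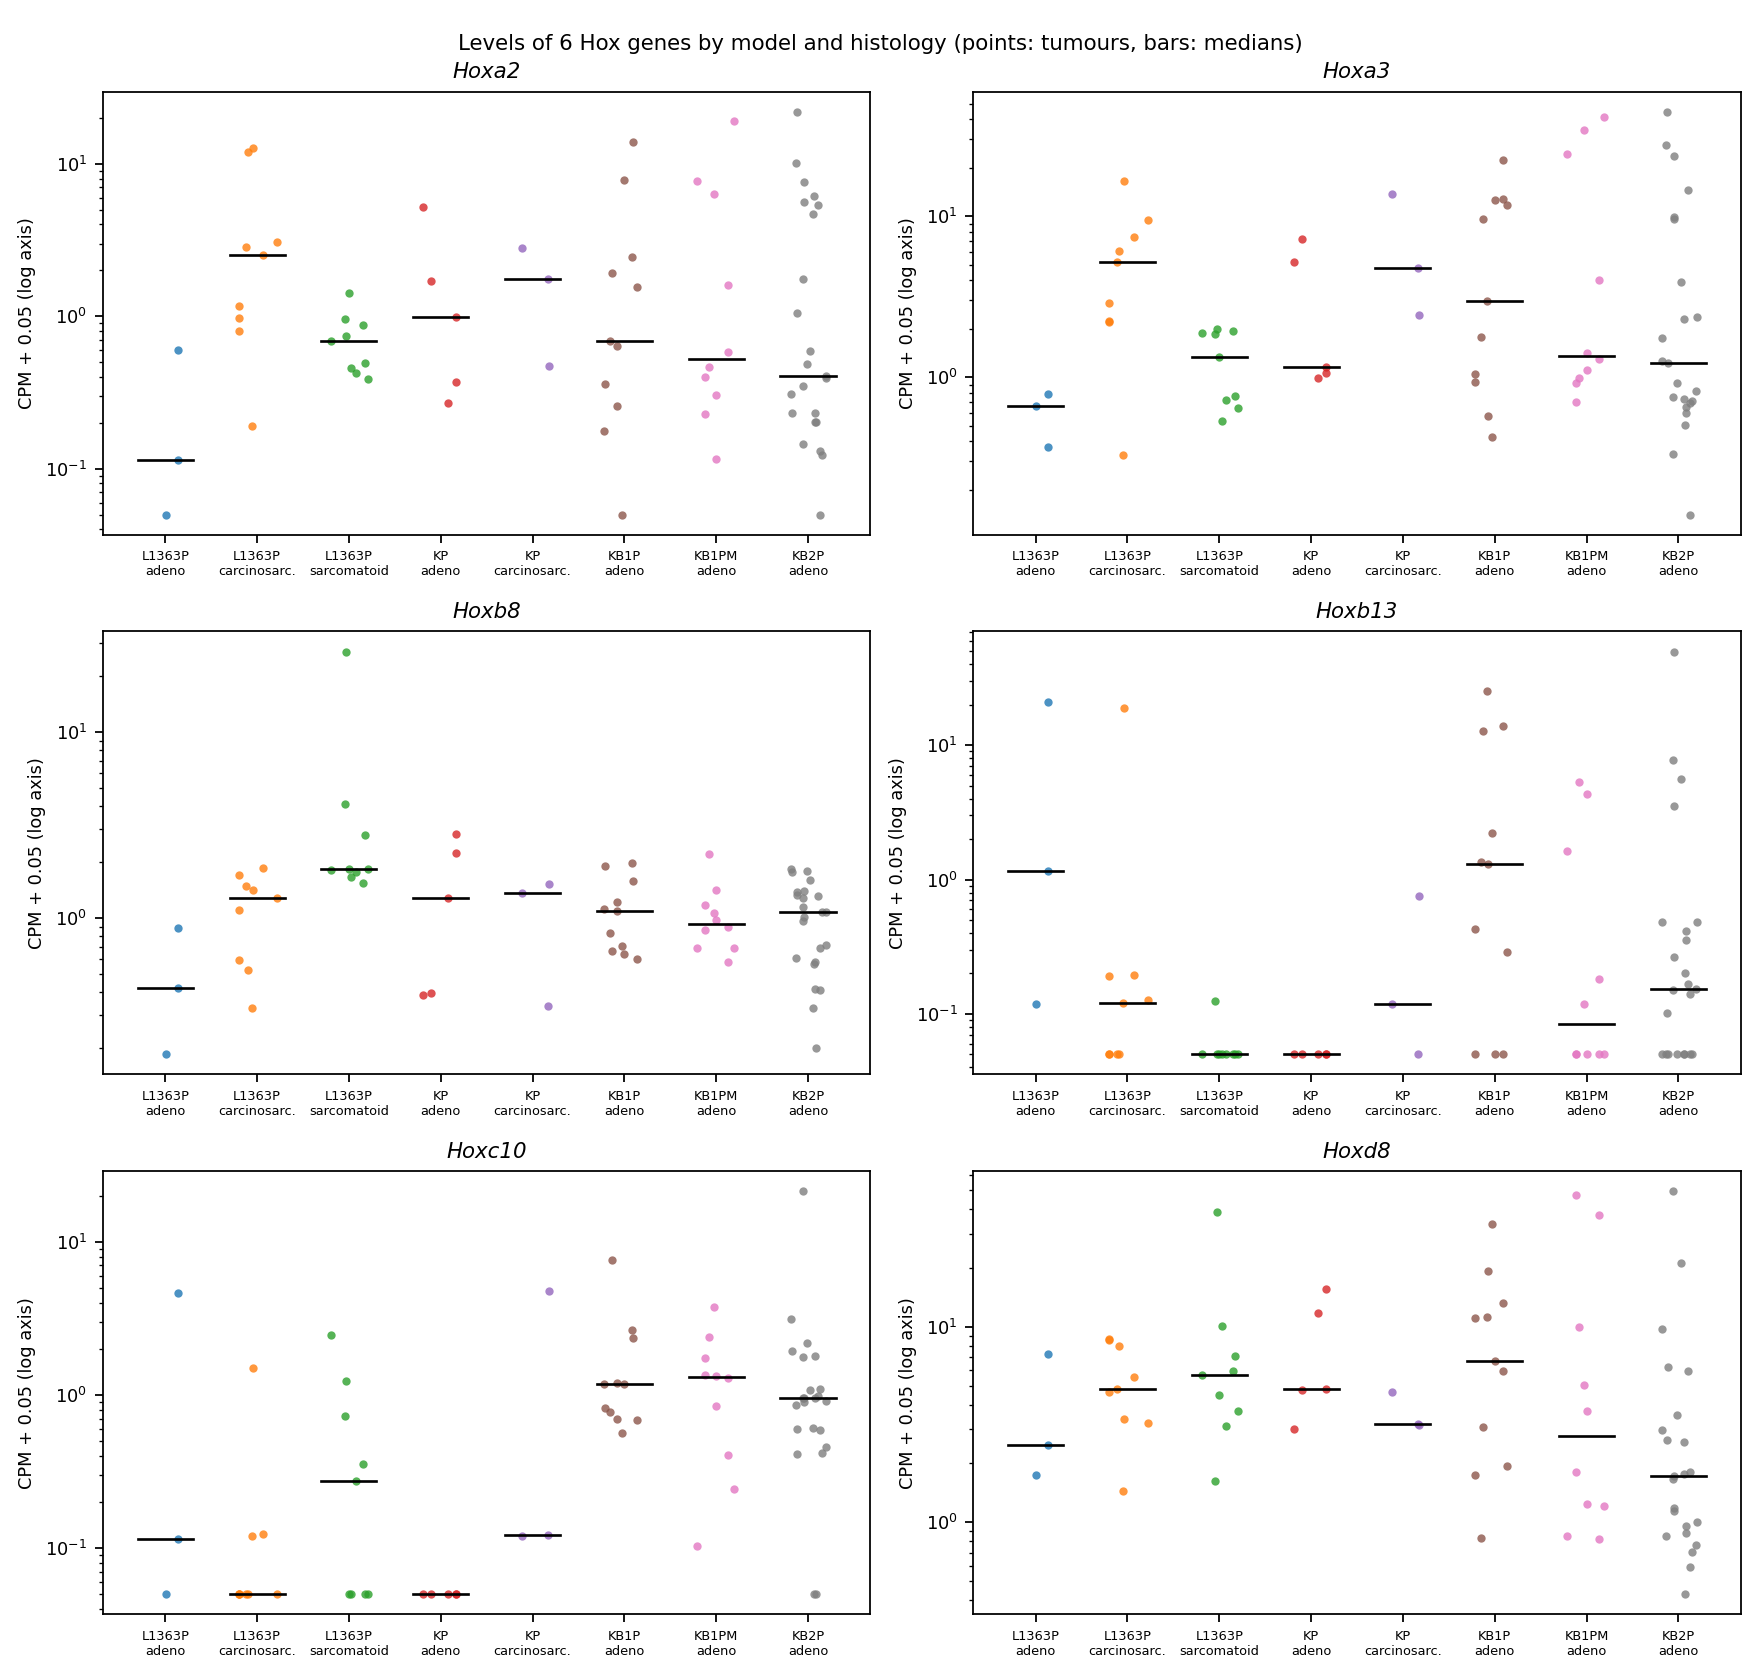
Levels of 6 Hox genes in the 8 groups (horizontal axis), as CPM + 0.05 on a log axis, with 1 point per tumour and a bar at the group median. The 9 sarcomatoid tumours sit above the 3 L1363P adenocarcinomas for Hoxb8, the 5 KP adenocarcinomas sit at 0 for Hoxb13 and Hoxc10, and Hoxb13 ranges from 0 to 49.8 CPM among KB2P tumours.

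Hoxb13 marked single tumours rather than a whole group. It reached 5 CPM in 9 of 73 tumours: KB2P tumours 5 (49.8), 13 (7.77) and 2 (5.57), KB1P tumours 6 (25.5), 9 (13.8) and 3 (12.7), KB1PM tumour 2 (5.29), L1363P adenocarcinoma 26.2 (20.8) and L1363P carcinosarcoma 54.1 (18.8). None of them was a KP or sarcomatoid tumour. Of the markers of hindgut and urogenital epithelium, Pbsn was at 0 in every tumour, and Cdx2 was at no more than 0.879 CPM in KB1P and 0.0862 in KB2P.

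Hoxc13 likewise reached 5 CPM in 9 tumours, of which 3 were also among those high in Hoxb13. These were KB1PM tumour 2 (50.1 CPM), KB2P tumours 8 (23.1), 46 (14.5), 38 (13.1), 34 (8.46) and 26 (5.11), KB1P tumour 3 (15.3), L1363P adenocarcinoma 26.2 (7.35) and KP adenocarcinoma 131.03A (6.33). KB1PM tumour 2, KB1P tumour 3 and L1363P adenocarcinoma 26.2 had both genes above 5 CPM. Hoxa13 reached no more than 0.771 and Hoxd13 no more than 3.96 CPM, both in KB2P tumour 3, so the 4 members of the group did not go together.

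Between KB1P, both titles, and KB2P adenocarcinomas 1 of 32 Hox genes was called, beside 13.2% of all genes. Hoxa10, a gene of the uterus and posterior trunk, was lower in KB1P at 0.608 ± 0.647 CPM (SD, n = 21) against 3.93 ± 16.2 (SD, n = 23), with a log2 fold change of -2.78, an SE of 0.761 and an adjusted p of 0.0085 by edgeR. KB2P tumour 3 alone was at 78.3 CPM, and without it the KB2P mean was 0.549 ± 0.405 (SD, n = 22), below that of KB1P. Without tumour 3 the log2 fold change was 0.04 (adjusted p = 0.974), so this call rested on that tumour. Hoxd10 (-2.08, adjusted p = 0.0783), Hoxa9 (-1.30, adjusted p = 0.244) and Hoxd8 (0.99, adjusted p = 0.187) did not pass, and Hoxb13 did not either: its means were 3.27 ± 6.46 (SD, n = 21) in KB1P and 3.00 ± 10.4 (SD, n = 23) in KB2P.

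No Hox gene passed between KB1PM tumours and those titled KB1P: 0 of 32 were called by edgeR, beside 0.887% of all genes, none had an unadjusted p under 0.05, and DESeq2 and limma called 0. Hoxb13 had the lowest fold change, -2.21 (SE 1.39, adjusted p = 0.584), and Hoxc13 the highest, 1.37 (SE 1.23, adjusted p = 0.734). Hoxd8, which led its cluster, ranged from 0.769 through 2.71 to 47.0 CPM in KB1PM and from 0.781 through 6.64 to 33.7 in KB1P tumours.

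No Hox gene passed between L1363P adenocarcinomas and those of KB1P or KB2P: 0 of 32 were called by edgeR in each comparison, beside 5% and 9.1% of all genes. An unadjusted p under 0.05 was found for 3 genes in each, DESeq2 called Hoxa2 and Hoxa3 lower in both, and limma called 0. Hoxa3 had log2 fold changes of -3.97 (adjusted p = 0.151) and -3.58 (adjusted p = 0.139) by edgeR, at 0.556 ± 0.215 CPM (SD, n = 3) beside 8.86 ± 12.0 (SD, n = 21) in KB1P and 6.46 ± 11.2 (SD, n = 23) in KB2P. The largest values upward were those of Hoxb13 (1.60) against KB1P and Hoxb4 (1.36) against KB2P, with adjusted p of 0.668 and 0.234. The 2 comparisons share the 3 L1363P tumours.

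The KB2P tumours of 2 runs, 12 of run 2749 and 9 of run 2459, differed in more Hox genes than any pair of models. Of 35 tested, 11 were called (31.4%), beside 6.9% of 19230 genes: 5 rose in run 2749, all of Hoxd, and 6 fell, from Hoxa, Hoxb and Hoxc. Hoxd10 (log2 fold change 5.73, adjusted p = 0.0054), Hoxd11 (7.29, 0.0310), Hoxd1 (5.28, 0.0273), Hoxd3 (3.81, 0.0438) and Hoxd9 (3.36, 0.0403) were higher by edgeR, and Hoxa11 (-8.45, adjusted p = 0.000307), Hoxb13 (-6.93, 0.0026), Hoxc11 (-5.02, 0.0034), Hoxc12 (-4.50, 0.0274), Hoxa10 (-4.05, 0.0085) and Hoxa9 (-3.62, 0.0233) lower.

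Several of these genes were high in a single tumour. In run 2749 Hoxd10 ranged from 0 through a median of 0.156 to 50.9 CPM and Hoxd9 from 0 through 0.542 to 103, both highest in tumour 38, and the medians of run 2459 were 0.0601 and 0.601. In run 2459 Hoxa11 ranged from 0 in 5 of 9 tumours to 47.5 CPM in tumour 3, and in run 2749 a single read was found in 12 tumours, a ratio of 927 (95% interval 166 to 36635, counting error only). The ratio was 52.9 (9.10 to 2129) for Hoxc12, and Hoxd11, at 0 in all of run 2459, was at least 53.8-fold higher in run 2749. Each rested on 1 tumour: tumour 3 held 924 of 928 Hoxa11 reads, tumour 8 50 of 53 Hoxc12 reads and tumour 38 158 of 161 Hoxd11 reads. Without these the ratios were 4.60 (0.455 to 226) for Hoxa11 and 3.43 (0.275 to 179.9) for Hoxc12, and Hoxd11 was at the floor of 3 reads. Hoxb13 was at 0 in 8 of 12 tumours of run 2749, where it reached no more than 0.302 CPM, and in 0 of 9 of run 2459, where it ranged from 0.0514 through 0.436 to 49.8, 6 of 9 lying above every tumour of run 2749. Without tumour 3 there were 7 calls, without tumour 38 6 and without tumour 8 7, and limma called Hoxb13 alone.

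Counted gene by gene, more of the raised Hox values lay beside another raised gene of the same tumour and cluster than alone. A value was counted as high when it reached 5 CPM and 5 times the median of its gene over all tumours, and 169 values in 50 of the 73 tumours did. Of these 101 (59.8%) fell in 31 stretches of 2 or more neighbouring genes and 68 stood alone. The values of 1 stretch are not separate events, and no share expected from the order of the genes was set beside the 59.8%. Stretches were found in 1 of 3 L1363P adenocarcinomas, 2 of 9 carcinosarcomas, 1 of 9 sarcomatoid tumours, none of the 8 KP tumours, 5 of 11 KB1P, 6 of 10 KB1PM and 9 of 23 KB2P tumours.

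The longest stretch ran over 9 of the 11 Hoxa genes in KB2P tumour 3, from Hoxa2 to Hoxa11. There Hoxa2 was at 21.9 CPM, Hoxa3 at 44.4, Hoxa4 at 11.9, Hoxa5 at 59.9, Hoxa6 at 9.41, Hoxa7 at 44.3, Hoxa9 at 77.9, Hoxa10 at 78.3 and Hoxa11 at 47.5, while Hoxa13 at the end was at 0.771. Hoxa11os, antisense to Hoxa11, was also highest there, at 27.6 CPM. The genes that flank the cluster were near their medians, Skap2 at 78.7 CPM (1.47 times) and Hibadh at 88.2 (1.26 times). The epithelial marker sum of the tumour was 1174 CPM, 22nd of 23 KB2P tumours, whose median was 3130.

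In KB2P tumour 38 the stretch covered 7 of 9 Hoxd genes, from Hoxd1 (9.31 CPM) through Hoxd3 (6.51), Hoxd4 (22.4), Hoxd8 (49.4), Hoxd9 (103) and Hoxd10 (50.9) to Hoxd11 (15.8). Haglr and Hoxd3os1, noncoding transcripts of the cluster, were highest in the same tumour, at 11.6 and 20.8 CPM. Of the flanking genes Mtx2 was at 106 CPM, 2.11 times its median and the highest of 73, Atp5g3 at 339 (1.69 times) and Lnpk at 27.2 (0.899 times), and Evx2, which lies next to Hoxd13, was at 0. The tumour's Hoxc13 was 13.1 CPM.

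Sarcomatoid tumour 10 had stretches in 3 clusters. Its Hoxb stretch ran from Hoxb4 (16.6 CPM) through Hoxb5 (7.11), Hoxb6 (26.5), Hoxb7 (21.3) and Hoxb8 (27.1) to Hoxb9 (73.9), and Hoxb13 was at 0. Its Hoxc stretch ran from Hoxc4 (18.7) through Hoxc5 (6.35), Hoxc6 (64.1) and Hoxc8 (48.8) to Hoxc9 (21.3). Hoxa7 and Hoxa9 were at 16.7 and 11.0 and Hoxd8 at 38.6, so the genes of these stretches bore numbers 4 to 9. Its epithelial marker sum of 115 CPM ranked 7th and its fibroblast sum of 11059 8th of 9, and the sum of 6 skeletal muscle markers, 173 CPM, ranked second, beside a group median of 6.38.

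Other stretches of 4 or more genes lay in Hoxa or Hoxc. KB1P tumour 11 was high from Hoxa2 to Hoxa9 (Hoxa5 at 41.2 CPM) and from Hoxb2 to Hoxb4 (Hoxb4 at 27.5), KB2P tumour 46 from Hoxa2 to Hoxa5 (Hoxa5 at 44.6) and carcinosarcoma 54.1 over the same genes (Hoxa3 at 16.4). KB2P tumour 8 was high from Hoxc8 to Hoxc11, with Hoxc9 at 20.4, Hoxc10 at 21.3 and Hoxc11 at 9.56 CPM, and had the highest Hotair level of all tumours, 2.15. The flanking Smug1 was there at 0.967 times its median.

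**Figure D4:**
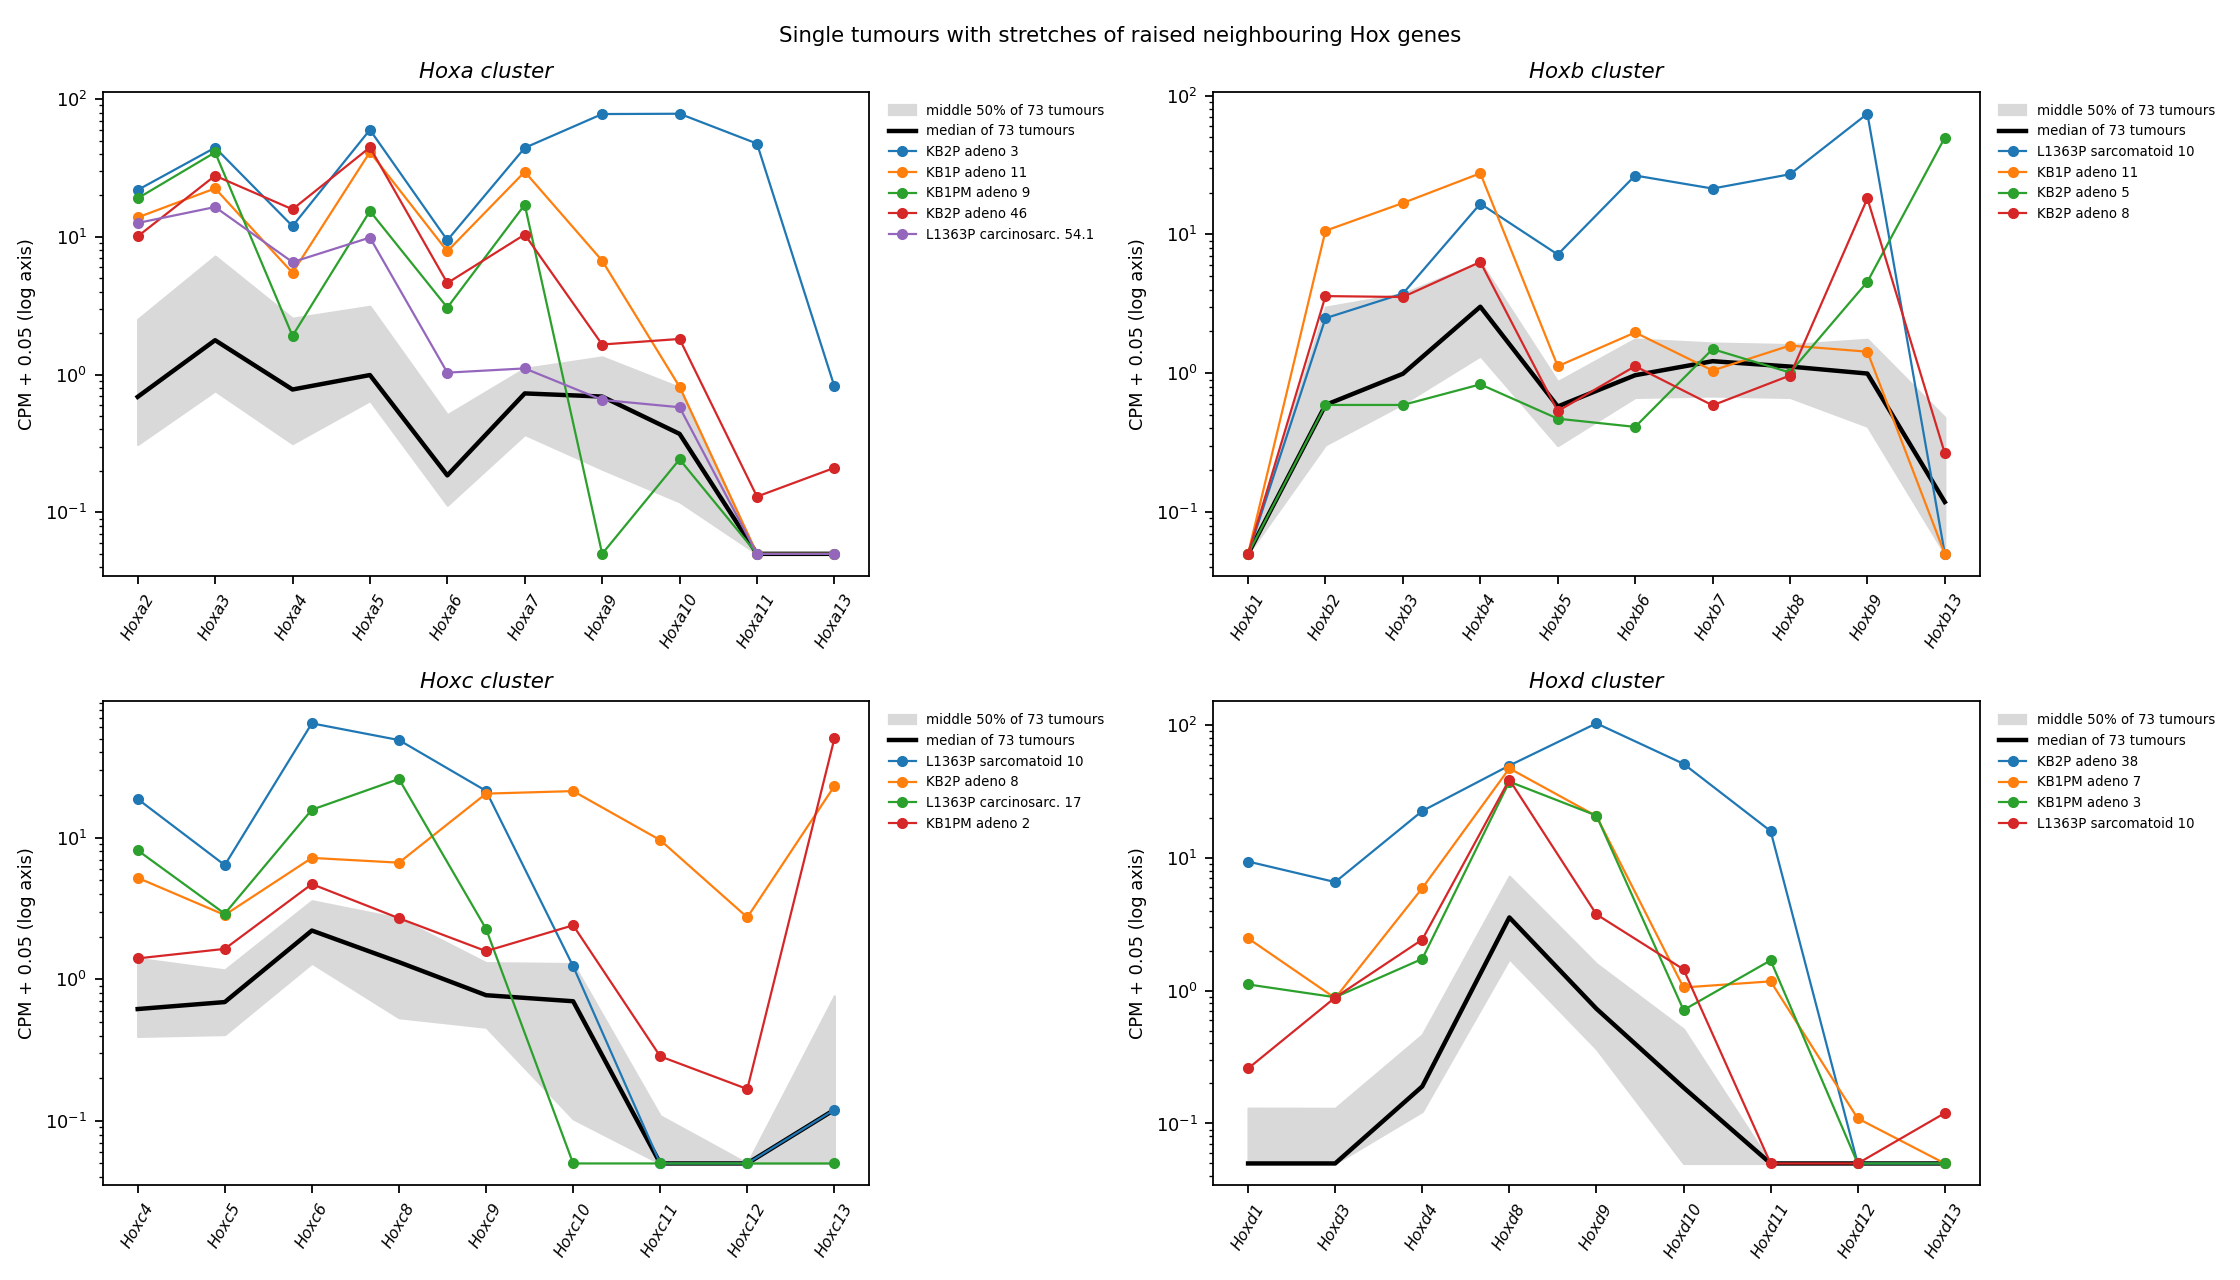
Levels along each Hox cluster (horizontal axis, genes by number) in tumours with raised neighbouring genes, as CPM + 0.05 on a log axis, with the median (black) and the middle 50% (grey) of the 73 tumours. KB2P tumour 3 stays near or above 10 CPM from Hoxa2 to Hoxa11, KB2P tumour 38 does so over much of Hoxd, and sarcomatoid tumour 10 over Hoxb4 to Hoxb9 and Hoxc4 to Hoxc9.

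Neighbouring genes also went together in rank across tumours, more than paralogs of the same number did. In the 23 KB2P tumours the median Spearman correlation was 0.71 over pairs of neighbours, 0.31 over pairs of the same number in different clusters and 0.29 over pairs that shared neither. In the 21 KB1P and KB1PM tumours the same medians were 0.82, 0.23 and 0.17. In the 9 carcinosarcomas they were 0.77, 0.27 and 0.20, and in the 9 sarcomatoid tumours 0.71, 0.28 and 0.20. Pairs of the same cluster that were not neighbours had medians of 0.52 in KB2P and 0.42 in KB1P and KB1PM tumours. Their medians were 0.4 in carcinosarcomas and 0.29 in sarcomatoid tumours, so part of the likeness was shared by genes further apart in a cluster, least in sarcomatoid tumours. These are descriptions over genes of nonzero median in the group, whose values share their libraries and, for overlapping neighbours, reads.

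Of 15 Polycomb genes tested, 8 fell and 1 rose between adenocarcinomas and sarcomatoid tumours, among them Cbx2 (log2 fold change -1.65, adjusted p = 0.0072 by edgeR), Cbx7 (-1.37, 0.0058), Ring1 (-1.13, 0.0010) and Ezh2 (-1.08, 0.0227), with Jarid2 higher (0.85, 0.0314). In carcinosarcomas 1 of 15 fell, Ring1 (-0.84, 0.04997), and 5 of 15 fell between carcinosarcomas and sarcomatoid tumours, Cbx2 by the most (-1.59, 0.0024). The 30.6%, 2.7% and 21.5% called among all genes apply to these counts too, and 12 of 12 epithelial markers fell in the first and the last comparison, whose part was not tested.

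Of 9 Pbx, Meis and Pknox genes, 1 rose and 1 fell between adenocarcinomas and sarcomatoid tumours. Meis2 was higher both in carcinosarcomas (17.7 ± 8.38 CPM, SD, n = 9, log2 fold change 2.65, adjusted p = 0.0360 by edgeR) and in sarcomatoid tumours (12.6 ± 5.93, SD, n = 9, 2.13, 0.0185) than in adenocarcinomas (2.78 ± 2.02, SD, n = 3). Meis3 was lower in sarcomatoid tumours (-2.01, 0.0089). Of 7 Trithorax and demethylase genes 2 fell, Rbbp5 and Wdr5. Of 7 retinoic acid and upstream genes Gdf11 rose (2.26, 0.0090) and Cyp26a1, which degrades retinoic acid, fell (-3.21, 0.0215). Over all genes 30.6% were called between sarcomatoid tumours and adenocarcinomas, and none of these lists had a larger share. Between carcinosarcomas and adenocarcinomas 2.7% of all genes were called.

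Of 12 other developmental transcription factors tested, 4 rose between adenocarcinomas and sarcomatoid tumours, among them Tbx18 (3.16, adjusted p = 0.0065 by edgeR), Prrx1 (2.59, 0.0044) and Prrx2 (1.51, 0.0373), and 2 fell, Dlx3 (-5.44, 0.0014) and Dlx5 (-4.57, 0.0030). Over all genes 30.6% were called in that comparison. Of 11 tested genes that flank the clusters none was called in it. Calcoco1, beside Hoxc, fell between carcinosarcomas and sarcomatoid tumours (-0.60, 0.0139), where 21.5% of all genes were called. None of these lists had a called gene in the KP histology comparison, between L1363P and KP adenocarcinomas or in the interaction. Mir196a-1, a microRNA gene between Hoxb9 and Hoxb13, was at 0 in all 5 KP adenocarcinomas. It was called lower there than in KB1P and KB2P (adjusted p = 0.0298 and 0.0336 by edgeR). Its level was 0.759 ± 1.22 CPM (SD, n = 21) in KB1P, with a median of 0.266. In KB2P it was 0.474 ± 1.27 CPM (SD, n = 23), with a median of 0. The gene was also at 0 in all 9 L1363P carcinosarcomas, and it reached 1.73 CPM in L1363P adenocarcinomas. Model and run cannot be told apart in these levels.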

How the data were processed

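RNA of 73 mouse mammary tumours was extracted with TRIzol, and polyadenylated, strand-marked libraries were read on a HiSeq2500, per the labels' protocols. Tools listed in the submitters' processing notes are STAR 2.7.3a, cutadapt 2.10, DESeq and featureCounts 2.0.0, with build mm10. The authors deposited gene counts and a table of normalised values on a log2 scale, which share 36113 symbols. Tests on the counts used edgeR 4.0.16 (R 4.3.3): filterByExpr with a minimum count of 10, TMM scaling, and quasi-likelihood tests with Benjamini-Hochberg adjustment at 0.05. Comparisons among L1363P and KP tumours came from a fit of the 29 libraries of run 5625 in 5 groups, those with KB models from a fit of 73 libraries in 8 groups (KB2P split by run for the comparison of runs), and the slope from the 9 carcinosarcomas. Alternatives were DESeq2 1.42.0, limma 3.58.1 on the authors' log2 values, another scaling, no filter and only the groups compared. Further ones were each replicate left out and a replicate block. In the comparisons of KP with KB1P and KB2P, the KB tumours were not each left out. The scripts were tested on simulated data. Levels are CPM with TMM scaling. Exon lengths and positions are from GENCODE vM21, promoters from RefSeq GRCm38.p6. Named in each comparison are the called Hox genes (up to 8 per direction), up to 3 per direction that did not pass, Hoxb13 between models, and up to 4 called genes of each related list. Members and lists were chosen with earlier results of these data known. Some results are not reported here.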

Additional observations from a re-analysis of the deposited data

Results flagged for a closer look

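In groups of 4 to 10 tumours, the highest or lowest value of 58 of 139 gene and group pairs (41.7%) lay apart from the rest by more than Dixon's 95% limit. Chance would give about 5% for normally distributed values, which CPM with many zeros are not, so the shares cannot be compared. In 14 of the 58 every other tumour of the group was at 0, where any read passes the limit. Sarcomatoid tumour 10 held 21 of the 58. The values of at least 5 CPM are given here.

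Sarcomatoid tumour 10 was apart from the other 8 sarcomatoid tumours for 14 genes. These were Hoxa5 at 6.42 CPM, Hoxa7 at 16.7 and Hoxa9 at 11.0, then Hoxb5 at 7.11, Hoxb6 at 26.5, Hoxb7 at 21.3, Hoxb8 at 27.1 and Hoxb9 at 73.9. In Hoxc they were Hoxc4 at 18.7, Hoxc5 at 6.35, Hoxc6 at 64.1, Hoxc8 at 48.8 and Hoxc9 at 21.3, and in Hoxd it was Hoxd8 at 38.6.

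Carcinosarcoma 17 was apart from the other carcinosarcomas for Hoxb7 at 5.79 CPM, Hoxc4 at 8.08, Hoxc6 at 15.7 and Hoxc8 at 25.9, and carcinosarcoma 54.1 for Hoxb13 at 18.8. Among KP adenocarcinomas, tumour 89.01A was apart for Hoxa5 at 11.8 and Hoxa7 at 5.54, and tumour 131.03A for Hoxc13 at 6.33. Among KB1PM adenocarcinomas, tumour 9 was apart for Hoxa2 at 19.01 and Hoxa5 at 15.4, tumour 2 for Hoxc13 at 50.1 and tumour 7 for Hoxd4 at 5.85.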

How the results depend on the processing

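The number of Hox genes called changed with the tool. Under limma on the deposited log2 values it was 3 (against 5) between sarcomatoid tumours and adenocarcinomas, 2 (6) between sarcomatoid tumours and carcinosarcomas, 0 (1) between KB1P and KB2P, 1 (2) for KP against KB1P and 1 (2) against KB2P, and 1 (11) between the KB2P runs. Under DESeq2 it was 3 (1) between carcinosarcomas and adenocarcinomas, 1 (0) in the KP histology comparison, in L1363P against KP and in the interaction, 2 (0) for L1363P against KB1P and 2 (0) against KB2P, and 7 (11) between the runs. With only the groups compared it was 2, 0 and 3 in the L1363P comparisons of sarcomatoid tumours with adenocarcinomas, carcinosarcomas with adenocarcinomas and sarcomatoid tumours with carcinosarcomas, and 1 for KP against KB2P. Without the filter it was 4 between KB1P and KB2P and 1 for L1363P against KB1P.

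With KP adenocarcinoma 90.01A and carcinosarcomas 17 and 4 left out, 0 were called between carcinosarcomas and adenocarcinomas and 1 for KP against KB1P. That setting, the splits by run and the ratios without 1 tumour were chosen after seeing the data. Between KB1P and KB2P, with KB2P run 2459 only 6 genes were called, with run 2749 only 2 and with KB1P-titled tumours only 0. Tumours of the same number correlated between -0.18 and 0.45 over 17 pairs (5 over 0.1). They were not treated as pairs, but a correlation cannot settle if shared numbers link them, and the labels do not say. The replicate block gave 0 calls for KB1P against KB2P.

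Leaving out 1 tumour at a time gave 2 to 6 calls between sarcomatoid tumours and adenocarcinomas, 0 to 3 between carcinosarcomas and adenocarcinomas, 4 to 9 between sarcomatoid tumours and carcinosarcomas, 1 to 7 between KB1P and KB2P, 6 to 16 between the runs, 1 for KP against KB1P without each KP adenocarcinoma, 2 to 3 against KB2P, and 0 to 1 in the interaction and in the epithelial slope. It gave 0 for L1363P against KB1P, KB2P and KP and in the KP histology comparison.

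Some fold changes changed sign. Leaving out 1 tumour at a time, Hoxc13 between sarcomatoid tumours and adenocarcinomas ranged from -8.12 to 0.93 (without adenocarcinoma 26.2) and Hoxb9 between sarcomatoid tumours and carcinosarcomas from -0.28 (without sarcomatoid tumour 10) to 3.47. Hoxa10 ranged from -2.84 to 0.044 between KB1P and KB2P and from -4.37 to 0.095 between the runs, the highest values being those without KB2P tumour 3. DESeq2 gave -0.26 for Hoxb9 and 0.069 for Hoxa10 between KB1P and KB2P, and KB2P run 2749 alone gave 0.051. For DESeq2 the cause was not tested.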
